A study of Mus musculus with 51 samples.

Results

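Expression of the genes through which leukaemia inhibitory factor (LIF) signals was followed while mouse embryonic stem (ES) cells differentiated into cardiac mesoderm under Bmp4. The 8 genes were chosen by symbol: the receptor chains Lifr, Il6st (gp130) and Osmr, the kinases Jak1 and Jak2, the transcription factor Stat3, and the inhibitors Socs3 and Socs2. All 8 were found in each of the 9 deposited expression tables, out of 24538 gene rows. RNA-seq was described by the labels for 18 samples, which the tables give as 14 distinct conditions. F1G4 wild-type (WT) cells, with 2 samples a stage, were measured as ES cells and after 1, 2 and 3 days under Bmp4, and Smad4 KO cells on days 1 and 2 together with WT cells of their own line. Eomes KO, T KO and Eomes/T double KO (dKO) cells were measured on days 2 and 3 against F1G4 WT cells.

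ES cells were kept on a feeder layer of mouse embryo fibroblasts in serum medium with LIF. The feeders were then taken away and the cells were aggregated in hanging drops, which is the stage labelled ES. Differentiation took place on fibronectin in medium with N2 and B27 supplements and Bmp4 at 20 ng/ml, renewed daily, and LIF is not among the listed components of that medium. Every day 1, 2 and 3 condition, WT or KO, received Bmp4. F1G4 cells were the parents of the single KO lines for Eomes and T, made with paired Cas9 nickases that removed the promoter and first exon, the dKO line was made from Eomes KO cells, and the lines were grown from picked single clones. The Smad4 KO line came from ES cells of 129S/SvEvxC57BL/6 background by Cre excision of a floxed first exon. The labels list 1 sample for each KO condition and for each WT condition of the Smad4 line, while the study describes such values as averages of replicates, so the number of libraries behind these columns is not known here.

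LIF is a cytokine of the interleukin-6 family. It binds Lifr, which pairs with the shared chain gp130, and the Jak kinases bound to these chains then phosphorylate Stat3, which moves to the nucleus. In mouse ES cells this route sustains self-renewal and a naive state, and Stat3 also switches on Socs3, which blocks gp130 and its kinases in a feedback loop. Osmr pairs with the same gp130 chain to receive oncostatin M. Socs2 belongs to the same inhibitor family and is best known for restraining growth hormone and Stat5 signalling.

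The 8 genes are protein-coding and lie at separate places in the genome (RefSeq, GRCm38.p6). Lifr is at chr15:7090610-7197489 and Osmr at chr15:6813568-6874968, on opposite strands of the same chromosome, and Il6st is at chr13:112464070-112506860. Jak1 is at chr4:101151974-101265282 and Jak2 at chr19:29251803-29313095. Stat3, at chr11:100886806-100939594, shares its chromosome with Socs3, at chr11:117966079-117970336, and Socs2 is at chr10:95383903-95417321.

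The recognition sequence of activated Stat dimers, TTCNNNGAA, was looked for on both strands of the RefSeq promoter windows (GRCm38.p6, the mm10 build of the expression tables; 250 bases before to 50 after a transcript start). There were 8 windows for 7 of the genes, and 1 of them held a match, in front of Socs3. The match is shown because Socs3 was of the 7 genes that exceeded 1 FPKM the one with the largest fold between its highest and lowest value, 36.5. That lowest value was 0.805 FPKM. It lies at chr11:117969502-117969530 with its flanks, on the minus strand, 154 to 146 bases before the start, with the matching letters in capitals. A predicted longer Socs3 transcript covers this place with an exon.

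Socs3, match with flanks: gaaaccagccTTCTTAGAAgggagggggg

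The Stat3 window held no match, and its stretch upstream of every annotated exon, at chr11:100939595-100939790 on the minus strand, is given for comparison.

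Stat3, upstream stretch: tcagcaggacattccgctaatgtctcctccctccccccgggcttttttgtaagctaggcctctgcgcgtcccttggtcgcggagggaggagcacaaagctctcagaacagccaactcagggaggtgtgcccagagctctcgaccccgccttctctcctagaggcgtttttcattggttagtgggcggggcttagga

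Of all 32851 promoter windows, 8.30% held TTCNNNGAA, so a match in 1 of 8 windows is near the background. The form with 1 more base between the arms was in 6.95% of all windows, the T-box letters TCACACCT in 1.28% and the Smad letters GTCTAGAC in 0.213%, and none of these was in a window of the 8 genes. A match is a description of the letters and not of a bound site. The GC content of the windows ranged from 50.8% to 82.4% over the 250 upstream bases, against a median of 52.4% for all windows. Lifr had both extremes, with 43 CpG in the window at chr15:7129322-7129571 and 3 CpG in the one at chr15:7140292-7140541. The expression tables give 1 value per gene, so the use of these starts cannot be told apart.

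The values are FPKM (fragment counts scaled to transcript length and to the mapped fragments of the library), which are per length and can be compared between genes. Each condition has 1 pooled value per gene, with no replicate spread and no read count, so no standard deviation, interval or test can be given and the depth is unknown. A gene was examined where its FPKM was above 1 in either of the conditions compared, and was called higher or lower where the log2 ratio was above 1 or below -1, which is the fold rule of the study. A call is therefore a size and not a test. A stricter log2 limit of 1.5 ends every call under that size, which is not repeated at each gene. In bulk RNA, fewer cells of a type and less RNA per cell cannot be told apart.

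As checks of the samples, naive pluripotency markers summed to 836 FPKM in ES cells and to 155 to 182 in F1G4 WT cells on days 1 to 3. Of the later sums, Nanog was 16.1 on day 1, 120 on day 2 and 119 on day 3. Nascent mesoderm markers summed to 1.38 in ES cells and to 421 on day 3. Of 9 fibroblast markers, Col1a1, Col1a2, Col3a1 and Lum never exceeded 1, and the list summed to between 1.69 in ES cells and 17.2 in Eomes KO cells on day 3. Of 8 endoderm markers, 5 never exceeded 1. In the KO lines, Eomes was at 25.7% of WT on day 2 and 1.36% on day 3 in Eomes KO cells, T was at 14.8% and 0.93% in T KO cells, and in the dKO cells Eomes was at 13.2% and 1.71% and T at 6.44% and 0.58%. Smad4 was listed at 117% and 119% of WT in the cells labelled Smad4 KO, and since its FPKM is read over the exons left in place, that value does not check the label.

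In ES cells the order of levels on the FPKM scale was Socs2 (43.1), Socs3 (29.4), Lifr (26.2), Il6st (19.5), Stat3 (19.3), Jak1 (8.75), Jak2 (1.54) and Osmr (0.0337). By day 3 it was Il6st (16.1), Jak1 (14.0), Socs2 (8.71), Jak2 (7.06), Stat3 (6.86), Socs3 (5.64), Lifr (5.25) and Osmr (0.209). The order thus turned from inhibitors and LIF receptor first to gp130 and Jak1 first. Whether neighbours such as Il6st and Stat3 in ES cells differ cannot be said without replicates. The 8 genes together summed to 148 FPKM in ES cells and to 52.6, 48.7 and 63.9 on days 1 to 3.

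**Figure D1:**
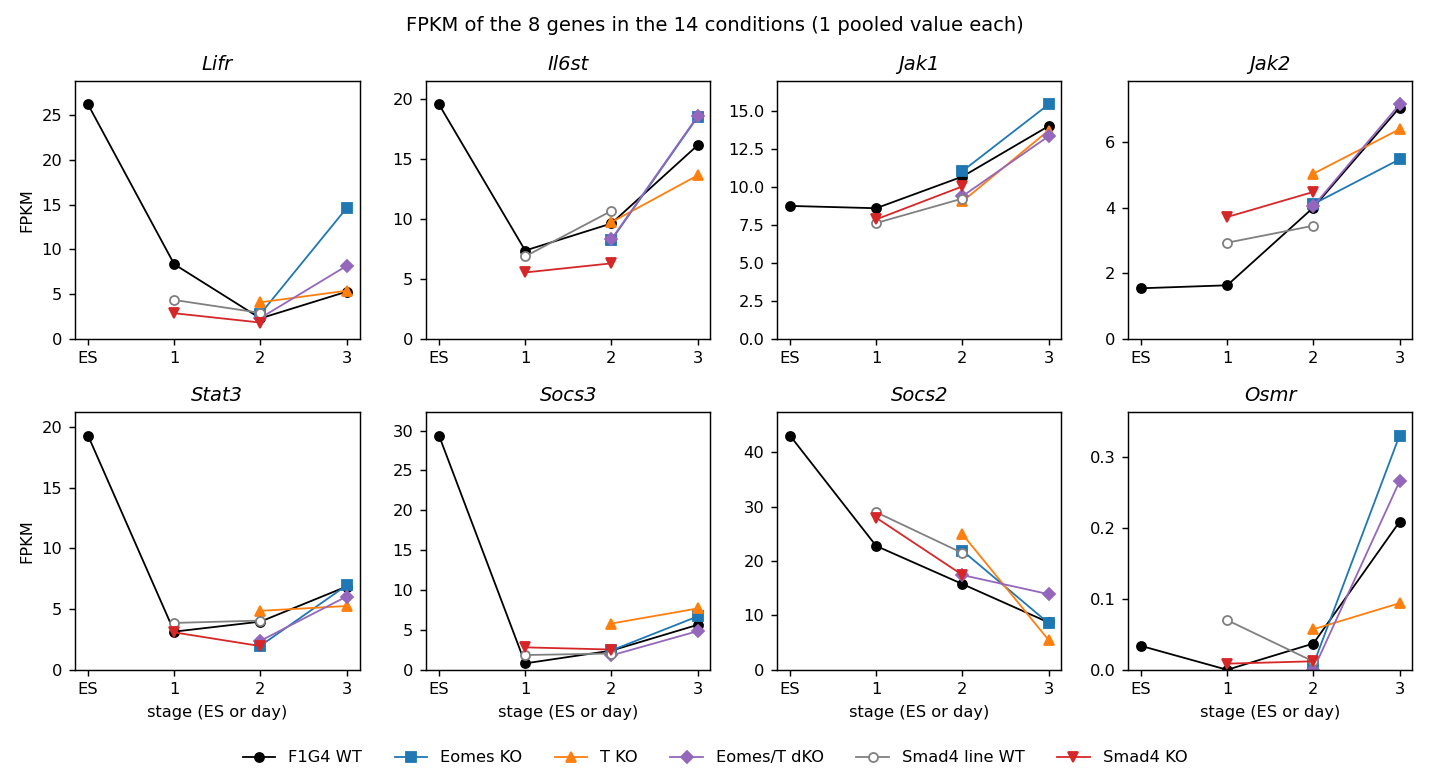
FPKM (vertical axis, linear, from 0, own scale per gene) against stage (horizontal axis) for the 8 genes, with 1 pooled value per point and 1 colour and marker per line; there are no error bars because the tables hold no replicates. Lifr, Stat3 and Socs3 drop from 26.2, 19.3 and 29.4 in ES cells and every later value is lower, the highest being 14.6 for Lifr in Eomes KO cells, while Jak1 and Jak2 climb to day 3.

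Of the 7 genes examined, 4 were called lower on day 1 than in ES cells, and none higher. Among all 11028 genes examined, 13.5% were called, 5.84% lower and 7.7% higher. On day 2, 5 of 7 were lower and 1 higher, where 23.3% of all genes were called, 9.08% lower and 14.2% higher. On day 3, 4 of 7 were lower and 1 higher, beside 31.1% of all genes, 12.6% lower and 18.5% higher. The median log2 ratio of the 7 genes was -1.41, -1.45 and -1.49 on days 1, 2 and 3, beside -0.06, -0.05 and -0.02 for all examined genes. All 3 comparisons share the ES cell column.

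Among the receptor chains, Lifr, the chain that binds LIF, was at 26.2 FPKM at the ES stage, then at 8.32, 2.27 and 5.25 on days 1 to 3. Its log2 ratio to ES cells was -1.65, -3.53 and -2.32, so that on day 2 it was 11.6-fold lower. The day 2 value was the lowest of the F1G4 WT stages and the day 3 value was 2.32-fold above it. Il6st, the signalling chain shared by the whole cytokine family, followed another course: 19.5 at the ES stage, then 7.35, 9.61 and 16.1. It was called lower on day 1 (log2 ratio -1.41) and narrowly on day 2 (-1.02), and on day 3 its log2 ratio was -0.28, which is not a call. The day 2 call of Il6st was also lost under 3 further settings, with log2 ratios of -0.95 with a pseudocount of 1, -0.88 on the TPM scale and -0.945 after median centring. Osmr was never above 1 FPKM: it was listed at 0 on day 1 in F1G4 WT cells and on day 2 in dKO cells, and its highest value was 0.330, in Eomes KO cells on day 3.

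The kinases went the other way. Jak1 was at 8.75 at the ES stage and at 8.60, 10.7 and 14.0 on days 1 to 3, with log2 ratios of -0.03, 0.29 and 0.68, none of them a call. Jak2 was at 1.54, 1.63, 4.00 and 7.06 over the same stages. It was called higher on day 2 (log2 ratio 1.38) and day 3 (2.20), when it stood 4.59-fold above ES cells. Jak2 was the single gene of the 8 to be called higher than in ES cells. Its day 2 call was lost with a pseudocount of 1, at 0.98, and with an FPKM minimum of 5. The Jak1 locus on chromosome 4 overlaps Raver2 on the other strand, which was between 2.58 and 11.9 FPKM over the 14 conditions. The libraries were strand-specific, but whether strand was used in the FPKM step is not stated.

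Stat3 started at 19.3 FPKM and was at 3.14, 3.97 and 6.86 on days 1 to 3. The log2 ratio was -2.62 on day 1, -2.28 on day 2 and -1.49 on day 3, and the gene was 6.14-fold lower on day 1. Every later stage was thus below the ES level, and the lowest stage was the first day under Bmp4.

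Among the inhibitors, Socs3 showed the widest swing. From 29.4 FPKM at the ES stage it stood at 0.805 a day later, then at 2.40 and 5.64. The day 1 log2 ratio of -5.19 (36.5-fold lower) was the 9th lowest of 11016 ranked genes. Its size rests on a day 1 value below 1 FPKM, and WT cells of the Smad4 line were at 1.92 that day after scaling. On days 2 and 3 its log2 ratio to ES cells was -3.61 and -2.38. Socs2 declined without a turn: 43.1, 22.8, 15.8 and 8.71, with log2 ratios of -0.92, -1.45 and -2.31, the first of which is not a call. It was the single gene of the 8 that was lower at each stage than at the one before.

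**Figure D2:**
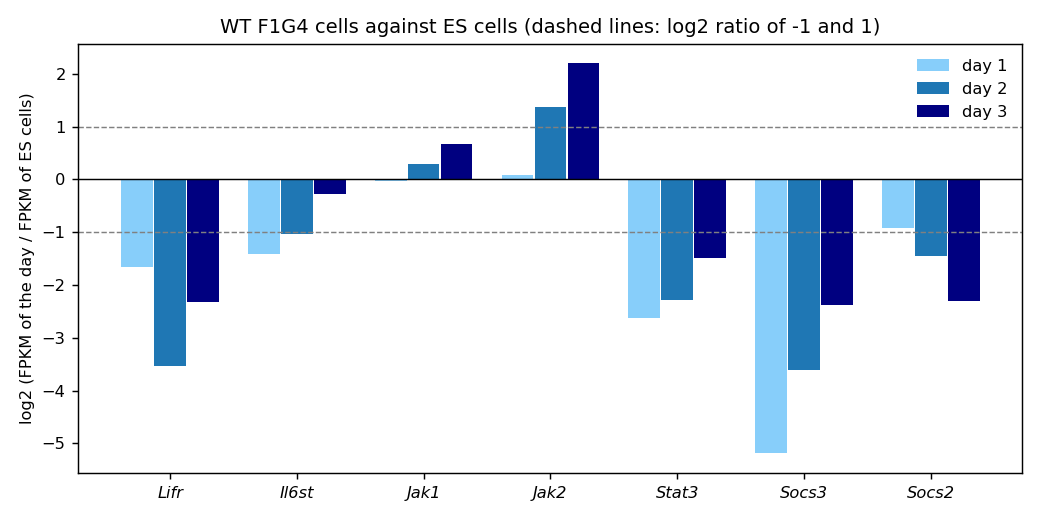
Log2 ratio of FPKM on day 1, 2 or 3 to FPKM in ES cells (vertical axis) for 7 genes (horizontal axis) in F1G4 WT cells, with dashed lines at the call limits of -1 and 1; Osmr is left out because it was listed at 0 on day 1. Socs3 reaches -5.19 on day 1, Lifr reaches -3.53 on day 2, and the bars of Jak2 point up to 2.20 on day 3.

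Between neighbouring stages, Lifr was lower on day 2 than on day 1 (log2 ratio -1.88), while Jak2 (1.30) and Socs3 (1.58) were higher. These were 3 calls among 7 genes, beside 11.3% of all genes. From day 2 to day 3, Lifr (1.21) and Socs3 (1.23) were called higher, beside 10.2% of all genes. Il6st (0.75), Jak2 (0.82) and Stat3 (0.79) had ratios above 0 and Socs2 one of -0.86, without reaching the limit. With a pseudocount of 1, the calls of Jak2 (0.93) and Socs3 (0.92) on day 2 and of Lifr (0.94) and Socs3 (0.96) on day 3 were lost, and the first pair was also lost with an FPKM minimum of 5.

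Genes described as Stat3 targets in ES cells formed a list of 12. Of these, 9 were called lower on day 1, 7 on day 2 and 8 on day 3 than in ES cells, beside 5.84%, 9.08% and 12.6% of all genes, with 1 called higher, Pim1 on day 2 (log2 ratio 1.08). The median log2 ratio of the list was -1.85, -1.48 and -1.59. Tbx3 and Klf4 are also on the naive marker list, whose members were called lower in 8, 6 and 6 of 8. Bcl3, a regulator of NF-kB, had the largest ratio on day 1 (5.88 to 0.108 FPKM, log2 ratio -5.77). Klf4, a naive pluripotency factor, was at 14.2 at the ES stage and at 0.396, 0.580 and 0.859 afterwards. Gbx2, a homeobox factor, was at 15.1, 0.831, 0.442 and 3.94 over the 4 stages. Tfcp2l1, another naive factor, was at 28.2, 2.90, 1.89 and 2.56.

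The other genes of the pathway were counted by list. Among the gp130 cytokines, 5 of 8 never exceeded 1 FPKM. Lif itself was at 0.796, 0.812, 1.82 and 1.83 over the 4 stages, called higher on days 2 (log2 ratio 1.20) and 3 (also 1.20). Of the other gp130-family chains, Il11ra1 (log2 ratio 1.77) and Cntfr (1.31) were called higher on day 3.

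Among the other Jak and Stat genes, 3 of 7 were lower and 1 higher on day 1, and 3 of 8 were lower and 3 higher on day 3, when 13.5% and 31.1% of all genes were called in either direction. On day 3 the largest ratios of this list were Stat4 (-3.14), Stat5b (2.88) and Stat5a (2.61). Of the other Socs, Pias and phosphatase genes, none of 12 was called on day 1 (13.5% of all genes) and 4 of 13 on day 3, near the 31.1% of all genes, of which Socs1 was highest (0.384 to 2.52 FPKM, log2 ratio 2.71), with Socs5 (1.62), Pias3 (-1.54) and Pias2 (-1.16). The median log2 ratio of this last list stayed between -0.04 and -0.03 on the 3 days.

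**Figure D3:**
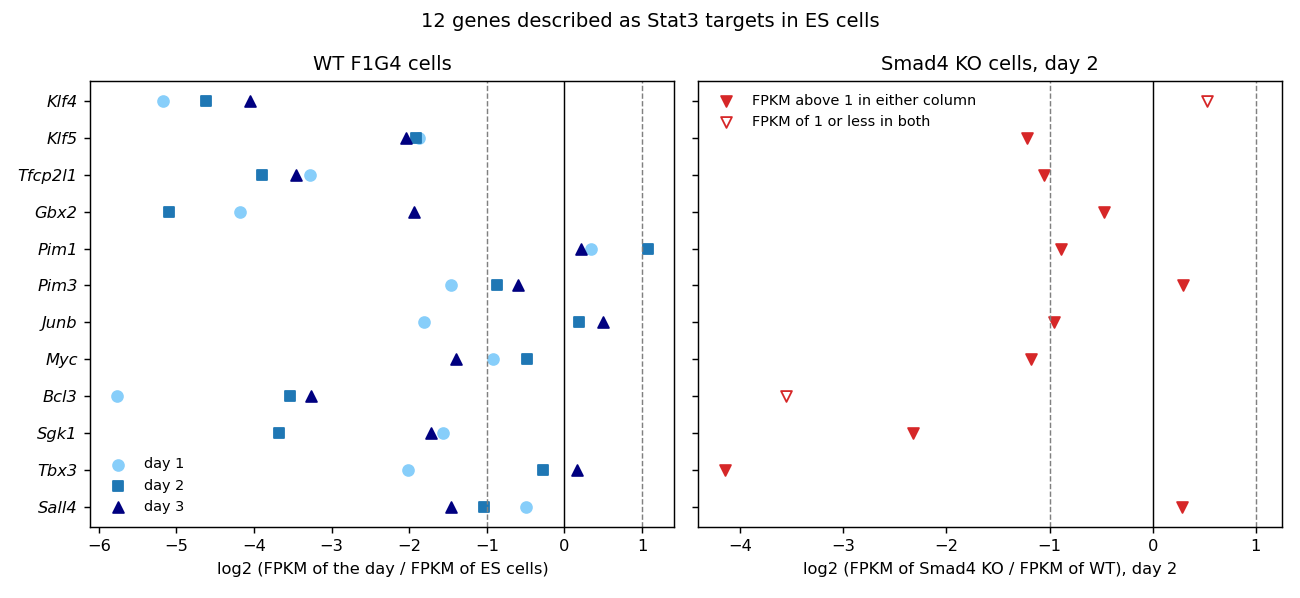
Left, log2 ratio of FPKM on each day to FPKM in ES cells (horizontal axis) for the 12 genes described as Stat3 targets (vertical axis) in F1G4 WT cells. Right, log2 ratio of Smad4 KO to WT cells on day 2, with open symbols for the genes of 1 FPKM or less in both; dashed lines mark -1 and 1, and Tbx3 lies at -4.15 and Sgk1 at -2.32 on the right.

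The KO comparisons ask how the pathway genes stand in cells in which the Bmp4 response is interrupted at Smad4, Eomes or T. The study reports that without Smad4 Nodal signalling is blocked along with that of BMP, and that active Ctnnb1 in the nucleus is strongly reduced. Each KO column was set against the WT column of its own table. The Eomes KO, T KO and dKO comparisons of a day share the F1G4 WT cells, whose values in these tables were 0.989 to 1.04 times those of the time course. Of 56 ratios of the 7 examined genes in 8 comparisons, 3 were calls, or 5.36%, where the same comparisons called between 4.77% and 16.4% of all genes. Each single comparison held 0 or 1 of them.

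As a yardstick, WT cells of the Smad4 line were compared with F1G4 WT cells after scaling to a common median ratio. On day 1, when 11.2% of all genes were called between these WT lines, Socs3 was called (0.805 against 1.92 FPKM, log2 ratio 1.25), and Lifr was at -0.89 and Jak2 at 0.90. On day 2, with 5.09% of all genes called, none of the 7 genes was, and their log2 ratios lay between -0.22 and 0.46. Columns of cells without a KO, those of the Smad4 line carrying conditional Smad4 alleles, thus differed by up to 1.25 on day 1 and by up to 0.46 on day 2 for these genes, line and table included.

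**Figure D4:**
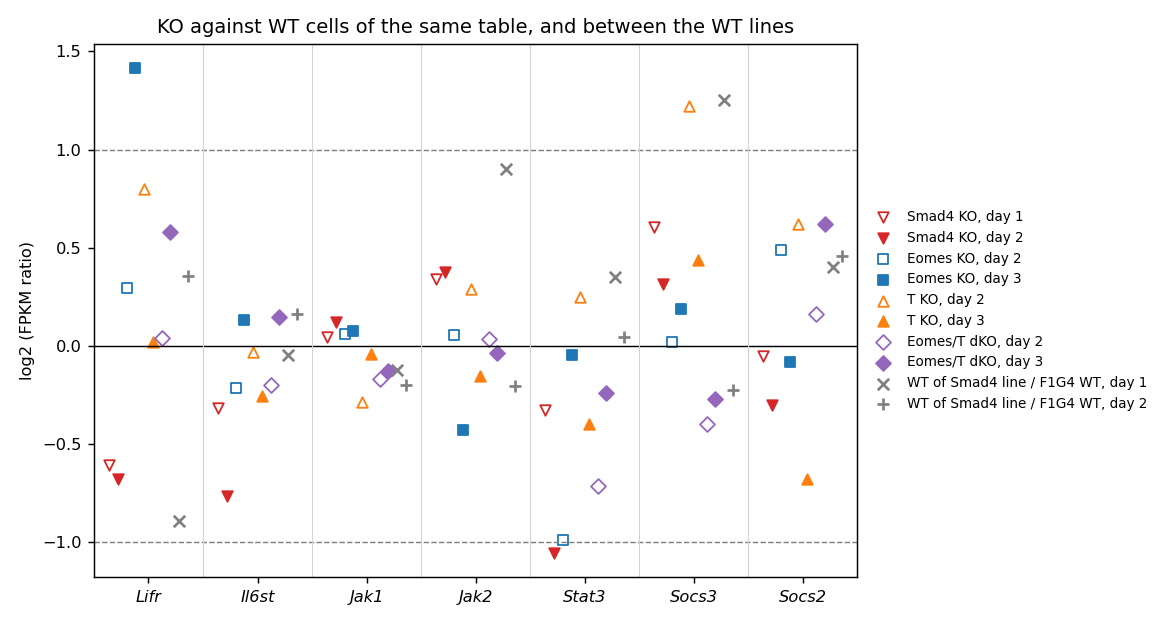
Log2 ratio of FPKM in KO cells to WT cells of the same table (vertical axis) for 7 genes (horizontal axis) in 8 comparisons, with grey crosses and plus signs for the ratio between the WT lines on days 1 and 2; each symbol is 1 ratio of pooled values, without error bars. Symbols past the dashed lines are Lifr in Eomes KO cells on day 3 (1.41), Socs3 in T KO cells on day 2 (1.22), Stat3 in Smad4 KO cells on day 2 (-1.05) and Socs3 between the WT lines on day 1 (1.25).

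In Smad4 KO cells, Stat3 was the gene past the limit on day 2. The KO value was 1.95 FPKM against a WT value of 4.05 (log2 ratio -1.05, 2.08-fold lower), which was 1 call of 7, beside 5.77% of all genes. A day earlier it had been 3.08 against 3.86 (-0.33), and no gene of the 7 was called, beside 4.77% of all genes. The day 2 call lies close to the limit and was lost with a pseudocount of 1 (-0.78) and with an FPKM minimum of 5. Both receptor chains had ratios below 0 on both days: Lifr went from 4.33 to 2.84 on day 1 (-0.61) and from 2.88 to 1.80 on day 2 (-0.68), and Il6st from 6.86 to 5.52 (-0.31) and from 10.7 to 6.28 (-0.76). Jak2 went from 2.93 to 3.71 on day 1 and from 3.45 to 4.48 on day 2. The inhibitors were not called, Socs3 going from 1.85 to 2.81 and from 2.04 to 2.54, and Socs2 from 29.0 to 28.0 and from 21.5 to 17.5.

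Of the list of Stat3 targets, 10 were examined in Smad4 KO cells on day 2, of which 5 were called lower and none higher, beside 5.77% of all genes called. The median log2 ratio was -1.01 beside -0.01 for all examined genes. Tbx3, a T-box factor, went from 1.88 to 0.106 FPKM, Sgk1, a kinase, from 26.2 to 5.24, and Klf5, a pluripotency factor, from 9.30 to 3.99. Myc (-1.18) and Tfcp2l1 (-1.05) were the others. The study also lists Tbx3 as a putative direct target activated by phosphorylated Smad1/5 and Smad2. On day 1 of the same line, 1 of 10 was higher, Gbx2 (1.76), and 1 lower, Tbx3 (-2.84), beside 4.77% of all genes called. On day 2 the nascent mesoderm markers summed to 76.6 in WT and 2.84 in KO cells, the naive markers to 205 and 43.1, and the neural markers to 30.7 and 72.1. Nanog was the highest naive marker in WT cells, at 121, and the highest in KO cells was at 26.8. All 5 examined naive markers were called lower, beside 5.77% of all genes. The part of these marker shifts in the Stat3 value was not tested.

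In Eomes KO cells, Stat3 on day 2 lay just inside the limit, with 1.98 FPKM against 3.93 in WT (log2 ratio -0.99). No gene of the 7 was called on that day, beside 7.52% of all genes, and the next largest ratio was that of Socs2 (15.6 to 21.9, 0.49). By day 3, Stat3 was at 6.95 against 7.17 (-0.04). The gene called on day 3 was Lifr, with 14.6 FPKM against 5.48 in WT (1.41, 2.66-fold higher, 392nd highest of 11589 ranked genes), beside 16.4% of all genes, so that 1 call of 7 is again no more than the background share. It kept its call in each other setting tried but the log2 limit of 1.5. The partner chain Il6st was at 16.8 and 18.5 (0.13), and Jak2 at 7.37 and 5.48 (-0.43). In the same KO column, beside the WT time course, nascent mesoderm markers summed to 6.08 against 421. Neural markers summed to 24.8 against 25.7, of which the highest single gene was 18.4 in KO and 25.5 in WT cells. In the KO comparison, 1 of 2 examined neural markers was called higher and none lower (median log2 ratio 2.16). Fibroblast markers summed to 17.2 against 10.8, and 1 of 3 examined was called higher and none lower (median 0.94). Col1a1, Col1a2 and Col3a1 stayed under 1. Both counts stand beside the 16.4% of all genes. The part of these marker shifts in the Lifr value was not tested.

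In T KO cells, Socs3 was called on day 2, with 5.80 FPKM against 2.49 in WT (log2 ratio 1.22), beside 15.6% of all genes, so that 1 call of 7 is no more than the background share. The call was lost with a pseudocount of 1 (0.96). Lifr (2.34 to 4.07, 0.80) and Socs2 (16.3 to 25.0, 0.62) also had ratios above 0, and Stat3 was at 4.08 and 4.86 (0.25). On day 3, none of the 7 was called, beside 6.04% of all genes. Socs2 then went from 8.79 to 5.49 (-0.68), Socs3 from 5.68 to 7.69 (0.44), and Lif, the ligand, stood at 1.85 and 3.91 (1.08, called higher).

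In dKO cells no gene of the 7 was called on day 2, beside 7.99% of all genes, or on day 3, beside 11.0%. Stat3 on day 2 was at 2.39 against 3.92 in WT (log2 ratio -0.72), between the values of the Eomes KO and T KO cells. On day 3, Lifr was at 5.45 and 8.14 (0.58), Socs2 at 9.05 and 13.9 (0.62) and Stat3 at 7.13 and 6.03 (-0.24).

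The wider lists were counted in the lines of F1G4 origin as well. Of the Stat3 targets, 1 was higher and 1 lower among 10 in Eomes KO cells on day 2 (7.52% of all genes called), and 1 higher and 3 lower among 11 on day 3 (16.4% of all genes). Of 10 in each, T KO cells had 1 higher on day 2 (15.6% of all genes) and 1 lower on day 3 (6.04%), and dKO cells 1 higher and 1 lower on day 2 (7.99%) and 2 lower on day 3 (11.0%). Sgk1 was lower on day 3 in these 3 lines, with log2 ratios of -3.64 in Eomes KO, -1.80 in T KO and -2.10 in dKO cells. Among the other Jak and Stat genes on day 3, 1 was higher and 2 lower of 8 in Eomes KO cells, beside 16.4% of all genes. In T KO cells it was 1 and 1 of 7, beside 6.04%, and in dKO cells 1 and 3 of 7, beside 11.0%. Of the 13 other Socs, Pias and phosphatase genes examined, at most 3 were called in any KO comparison, and the comparisons with 3 calls had 16.4% (Eomes KO, day 3) and 15.6% (T KO, day 2) of all genes called.

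Over the 8 comparisons, Stat3 was below WT in 7, the exception being T KO cells on day 2. On the TPM scale and after median centring it was below WT in 6, since its ratio in Eomes KO cells on day 3 then turned to 0.24 and 0.01. Scaling to TPM shifted the median of all examined genes by -0.41 in dKO cells on day 2, -0.22 in Eomes KO cells on day 2 and 0.28 in Eomes KO cells on day 3, and by 0.14 and 0.13 for WT days 2 and 3 against ES cells. On that scale Stat3 on day 2 was past the limit in Eomes KO (-1.21) and dKO (-1.12) cells, of which the shifts of -0.22 and -0.41 are a part. Il6st was below WT in 6 of 8, and in 5 on the TPM scale. Lifr and Socs3 were each above WT in 6 of 8, and on the TPM scale in 4 and 5. Jak1 varied least, with log2 ratios between -0.29 and 0.12.

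From day 2 to day 3, across tables normalized separately, the 2 lines without Eomes had larger Lifr and Stat3 ratios than WT and T KO cells. The dKO line was made from Eomes KO cells, so these 2 lines are not independent of each other. Lifr went from 2.76 to 14.6 in Eomes KO cells (5.29-fold) and from 2.31 to 8.14 in dKO cells (3.53-fold), beside 2.32-fold in WT and 1.32-fold in T KO cells. Stat3 went from 1.98 to 6.95 in Eomes KO cells (3.51-fold) and from 2.39 to 6.03 in dKO cells (2.53-fold). In WT cells it went from 3.97 to 6.86 (1.73-fold), and in T KO cells the ratio was 1.08-fold. Socs2 went the other way in all of these lines, most in T KO cells, from 25.0 to 5.49 (log2 ratio -2.19), and least in dKO cells, from 17.4 to 13.9 (-0.33). The differences between lines in these ratios were not tested, since each rests on 1 value per condition.

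The likeness of patterns was measured as Pearson's r of log2(FPKM + 0.1) over the 14 conditions, among 12589 genes above 1 FPKM in at least 1 condition. These points share lines, tables and the single ES column, so r is a description. Within the set, Lifr and Stat3 (0.84), Socs3 and Stat3 (0.84) and Il6st and Stat3 (0.82) ran most alike, and Jak1 and Socs2 most opposite (-0.87). The genes closest to Lifr were Dlc1 (0.915) and Capn1 (0.911), those closest to Il6st Lmna (0.95) and Zfp382 (0.93), and those closest to Stat3 Mob3c (0.91) and B4galt1 (0.90). Socs3 was closest to Mras (0.91) and Mtmr12 (0.91), Socs2 to Zfp979 (0.95) and Tbl3 (0.95), Jak1 to Tgfbi and Ext2 (both 0.945), and Jak2 to Decr1 (0.97) and Tmem9b (0.96).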

How the data were processed

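RNA-seq libraries were strand-specific and paired-end. Per the submitters' processing notes and the study's methods, reads were trimmed with cutadapt 2.9, aligned to mm10 with HISAT2 2.1.0, sorted with SAMtools 1.9 and counted over RefSeq genes with Cuffdiff 2.2.1 with correction for multi-mapped reads and sequence bias, but none for effective length. The deposited FPKM values are normalized by the authors within each of the 9 tables, with 1 pooled value per gene and condition. They hold no reads or replicates, so the depth is unknown. A scaling step in 1 table can move all its ratios together.

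Log2 ratios of FPKM were computed within a table without a pseudocount, with Python 3.11.15, numpy 2.4.6 and pandas 2.3.3. Figures were drawn with matplotlib 3.10.9. The limits were FPKM above 1 in either condition and a log2 ratio above 1 or below -1. This step was tested on simulated data. Some genes of the lists are not reported here. In the time course, 4 rows with repeated names were left out. The genes and lists were chosen with earlier results of these data known. The text names all 8 genes, up to 3 called genes with the largest ratios per list and comparison, the targeted genes and the 2 closest patterns per gene, and any other list gene named was picked after its values were seen. Alternatives were a pseudocount of 1, no minimum, a minimum of 5, TPM (FPKM scaled to 1000000 per column), median centring and a log2 limit of 1.5.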

Additional observations from a re-analysis of the deposited data

How the results depend on the processing

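Calls against ES cells over 3 days numbered 15 and stayed between 10 and 16 under the 6 alternatives. Calls in KO against WT cells numbered 3, and were 1 with a pseudocount of 1, where Stat3 in Smad4 KO and Socs3 in T KO cells on day 2 were lost. They were 6 without an FPKM minimum. The added calls were of Osmr, never above 0.330 FPKM: Smad4 KO day 1 (-3.02), Eomes KO day 2 (-2.32) and T KO day 3 (-1.16). On the TPM scale they were 5, with Stat3 on day 2 in Eomes KO and dKO cells added. With a log2 limit of 1.5 they were 0, which follows from the stricter limit. Of 525 recomputed values of 105 ratios, 506 kept their side of the limit, without the setting of 1.5, which ends every call under that size. The sign changed in 14 values, 12 on the TPM scale and 2 after median centring, all of ratios of at most 0.161 in size and none of a call. The TPM scale moved Stat3 on day 2 past the limit in Eomes KO (-1.21) and dKO (-1.12) cells, and Lifr between the WT lines on day 1 (-1.05). The share of all genes called changed by over 1.5-fold in 13 of 15 comparisons with a pseudocount of 1 (1.57% to 22.9%), in 11 without a minimum (13.5% to 36.9%), in 11 with a minimum of 5 (1.6% to 24.6%), in 3 on the TPM scale (7.05% to 34.3%) and in 15 with a log2 limit of 1.5 (1.99% to 19.9%). No paired analysis was possible because each condition is 1 pooled column without a replicate number, and for the same reason no replicate could be left out. A difference below the fold limit cannot be told from sampling error without replicates.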

Other observations

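Stat4 was called higher on day 3 in 3 KO comparisons: from 0.980 to 2.46 FPKM in Eomes KO, from 0.948 to 2.20 in T KO and from 0.976 to 2.01 in dKO cells. These comparisons share the F1G4 WT cells, where the Stat4 level was below 1, and they called 16.4%, 6.04% and 11.0% of all genes. Between the WT lines on day 2, Stat4 was at a log2 ratio of 1.02. Cntfr, the receptor chain for ciliary neurotrophic factor, was called higher on day 2 in Eomes KO (2.82 to 6.58) and T KO cells (2.94 to 7.24) and on day 3 in dKO cells (2.56 to 6.35). Of all genes, 7.52%, 15.6% and 11.0% were called there. In the other KO comparisons, day 3 of Eomes KO and T KO cells among them, no chain of its list was called higher. Between the WT lines on day 2, Cntfr was at a log2 ratio of 0.72.

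Sgk1, on the list of Stat3 targets, was at 165 FPKM in ES cells and at 55.6, 12.9 and 50.3 on days 1 to 3 in F1G4 WT cells. Between the WT lines on day 2, it was at a log2 ratio of 1.03. On day 3 Sgk1 was lower in each KO line of F1G4 origin: 52.5 in WT against 4.23 in Eomes KO cells, 50.7 against 14.6 in T KO cells and 52.3 against 12.2 in dKO cells. Gbx2 on day 2 was higher in these 3 lines, at 4.02, 4.52 and 2.99 against WT values of 0.438 to 0.458, where the WT level is below 1. It was also 1.73 (log2) higher in WT cells of the Smad4 line than in F1G4 WT cells on that day. The genes of this paragraph and the one before were chosen after their values were seen, and the differences between lines were not tested.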
